A study of Mus musculus with 28 samples.

Results

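Genotype was compared across the dorsal striatum, the ventral striatum and the hypothalamus of Hdc knockout (KO) and wild-type (WT) mice, in order to describe the transcripts that differed in the same direction in all 3 regions. The comparison used 14 of the 28 libraries of the series: 6 KO libraries from 2 mice and 8 WT libraries from 3 mice. All mice were adult males aged 2-3 months from a colony backcrossed onto C57Bl/6, and heterozygous mice and motor cortex were also profiled. The dorsal striatum had 2 KO and 2 WT libraries, and the ventral striatum and hypothalamus each had 2 KO and 3 WT libraries. The digit in each library title was taken as the mouse, so that mice 1, 2 and 3 were WT and mice 7 and 8 were KO. Libraries of 1 mouse are not independent of each other. Of 14611 genes above 1 CPM (counts scaled to library size) in at least 2 of the 14 libraries, 34 passed the test for genotype and differed in 1 direction in every region: 20 were higher and 14 were lower in KO.

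Hdc encodes histidine decarboxylase, the enzyme that makes histamine from histidine. In the brain, neuronal histamine is made by cells of the tuberomammillary nucleus in the posterior hypothalamus, whose axons reach the striatum and cortex. There histamine acts on the receptors H1, H2 and H3, the last of which also restrains release of histamine and other transmitters.

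Between 3714890 and 4560964 reads were counted on genes in the KO libraries, and between 3536802 and 5150280 in the WT libraries. The summed level of 17 spiny projection neuron markers was 11450 to 15780 CPM in the dorsal striatum, 3061 to 6468 CPM in the ventral striatum and 648 to 700 CPM in the hypothalamus. Markers of hypothalamic neurons summed to 227 to 307 CPM in the hypothalamus and to at most 21.3 CPM in either part of the striatum. Striatal and hypothalamic libraries thus carried the markers of striatum and hypothalamus. No list was specific to the dorsal or the ventral striatum. The 2 KO ventral striatum libraries lay at 3061 and 6468 CPM of spiny projection neuron markers. One library stood apart. The KO dorsal striatum library of mouse 8 held 10311 counts of Ttr, a choroid plexus gene with no more than 16 counts in any of the other 13 libraries, and its choroid plexus markers summed to 2953 CPM against 6.01 to 66.0 CPM elsewhere. The mitochondrial genome took 33.1% and 34.8% of counts in the KO dorsal striatum and 48.8% and 41.7% in the WT dorsal striatum. In all 3 regions the samples are pieces of tissue, in which fewer cells of a type and less RNA per cell cannot be told apart.

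Hdc itself was examined first as a check of genotype. In the hypothalamus its count was 54 and 66 in the KO libraries and 79, 111 and 94 in the WT libraries, a log2 fold change of -0.42 ± 0.20 (SE). In the dorsal striatum the KO libraries held 40 and 31 counts and the WT libraries 3 and 0. In the ventral striatum they held 49 and 51 counts against 1, 6 and 0. The hypothalamic difference did not pass the test (edgeR, adjusted p = 0.91), whereas Hdc was higher in KO in the dorsal and ventral striatum, by 4.38 ± 0.54 and 4.20 ± 0.40 on the log2 scale (adjusted p = 4.06e-12 and 1.14e-21). These are counts over all exons of the gene, and deleted and kept exons cannot be told apart in them, so they cannot show the loss of Hdc. In the striatum they were nonetheless ordered by label. Heterozygous libraries lay between WT and KO, at 4.17 to 6.73 CPM in the dorsal striatum (WT at most 0.90, KO at least 8.14). In the ventral striatum they were at 5.24 to 5.51 CPM (WT at most 1.62, KO at least 11.6). In the hypothalamus heterozygous libraries, at 14.6 to 21.8 CPM, overlapped WT. KO and WT stand for the labelled genotypes throughout.

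A test of genotype with region as an additive term (edgeR's likelihood ratio test, Benjamini-Hochberg adjusted p under 0.05) called 35 of the 14611 genes, which is 0.24%. Hdc was the gene among them whose direction differed between regions, and the other 34 (0.233% of genes tested) moved in 1 direction throughout. For comparison, 31.7% of all genes had the same direction in the 3 regions without any test, 2278 higher and 2355 lower in KO. KO and WT libraries did not overlap in any of the 3 regions, in 1 direction, for 109 of all genes tested (0.746%). The same held for 25 of the 34, which were chosen on these libraries. At an unadjusted p under 0.05 there were 1237 genes. The 20 genes that rose were 0.137% of those tested and the 14 that fell 0.0958%. None of the 34 passed edgeR's test for a difference between regions, which called 15 genes (0.103%). Of the 34, 1 (Chp1) had an unadjusted p under 0.05 in that test, beside 700 of the 14611 genes. Choosing genes of 1 direction disfavours such a difference, so this does not show equal changes in the regions. Most of these changes were small: 10 of the 34 differed by more than 1 on the log2 scale, and the other 24 by less, in either direction.

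**Figure D1:**
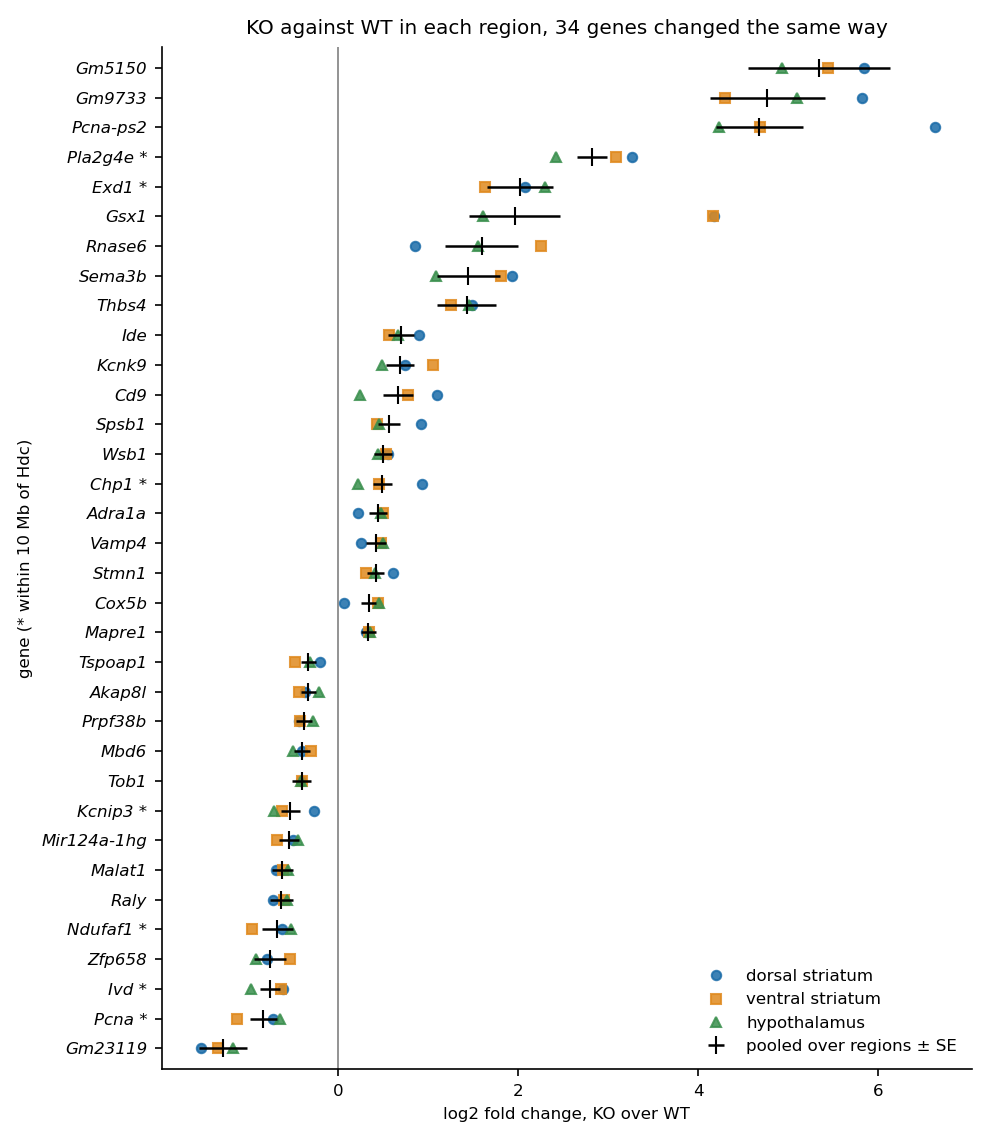
Log2 fold change of KO over WT (x axis) for the 34 genes that changed the same way in 3 regions (y axis), with 1 marker for each region and a black bar for the pooled estimate ± SE. All 3 markers lie on 1 side of 0 for every gene by construction; Pcna-ps2, Gm9733 and Gm5150 have almost no WT counts, so their fitted values depend on the prior count.

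Since the libraries of 1 mouse were treated as separate in this test, the same genes were also looked at by mouse. For each gene the value of a mouse was the mean over its regions of log2 CPM minus the WT mean of the region. These values describe the genes as selected and are no separate test, since the same libraries chose the genes. With 5 mice there are 10 assignments of genotype, and an exact permutation test over mice could not go below p = 0.1. The counts rested on few animals. With the mouse as a random block (limma voom) 18 of the 34 genes passed, with edgeR's quasi-likelihood test 11, with DESeq2 16, and 10 passed in all of these: Pla2g4e, Pcna-ps2, Gm9733, Gm5150, Ivd, Pcna, Malat1, Wsb1, Kcnip3 and Raly. Of these 10, Pcna, Malat1, Wsb1, Kcnip3 and Raly lost the call without KO mouse 8. Pcna, Wsb1 and Kcnip3 also lost it without the ventral striatum, Wsb1 and Kcnip3 without the hypothalamus, and Raly without the dorsal striatum. Kcnip3 and Raly lost it with libraries scaled by size alone. The fitted block correlation was -0.04, so p-values with the mouse block also measure the spread between libraries, not mice. Leaving out KO mouse 8 left 12 genes that changed the same way in 3 regions, 8 of them among the 34, whereas leaving out KO mouse 7 gave 130, with 24 of the 34. Without WT mouse 1 there were 18. Among single libraries, leaving out the KO ventral striatum library of mouse 7 gave 78, the KO hypothalamus library of mouse 7 gave 50 and the KO ventral striatum library of mouse 8 gave 21. Without the dorsal striatum library rich in Ttr the count was 31, with 25 of the 34. With libraries scaled by size alone there were 23 genes, 19 higher and 4 lower in KO.

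**Figure D2:**
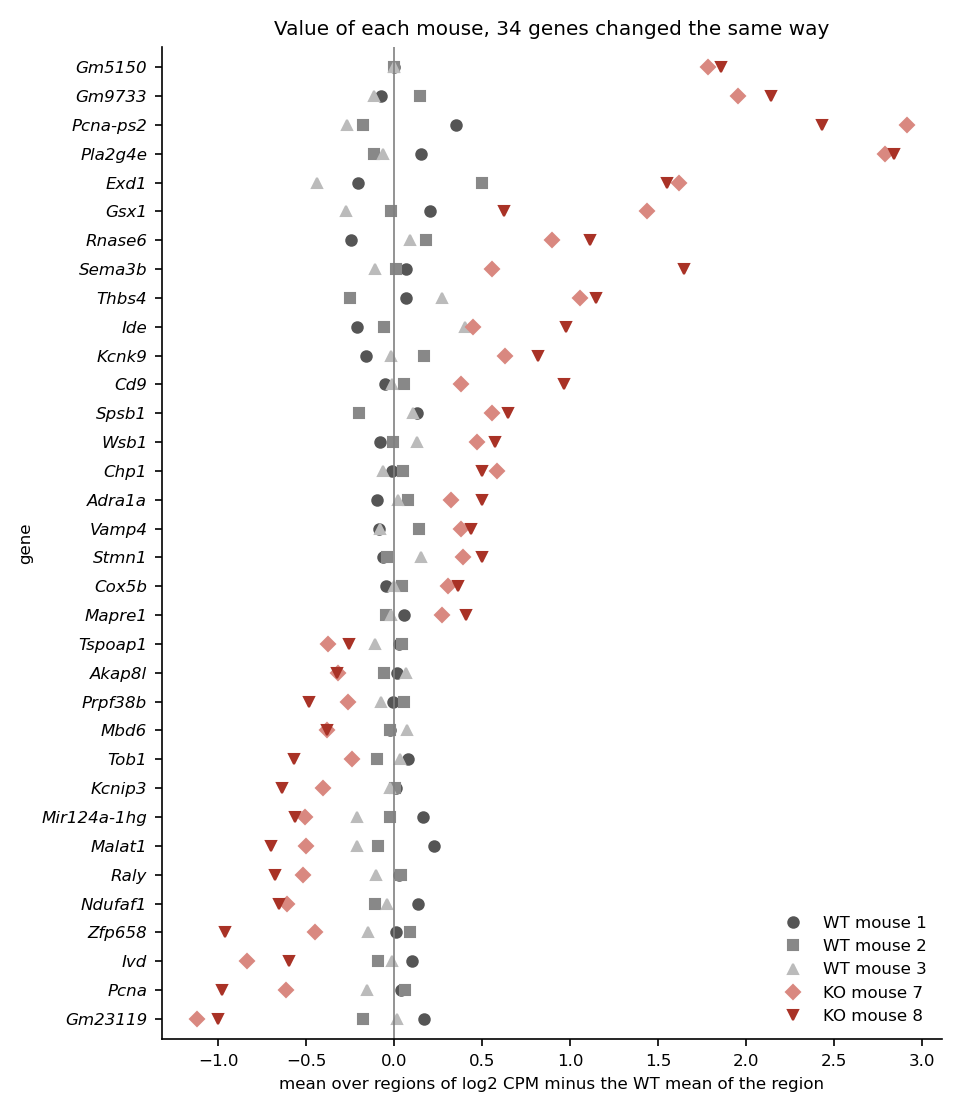
Value of each of the 5 mice (x axis, mean over regions of log2 CPM minus the WT mean of the region) for the 34 genes (y axis). The WT mice 1 to 3 surround 0, and KO mice 7 and 8 lie to 1 side of them for each gene, as the choice of genes on these libraries favours.

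Genes close to Hdc on chromosome 2 held 7 of the 34 genes. Within 10 Mb of Hdc 200 genes were tested and 7 (3.5%) changed the same way in 3 regions. On the rest of chromosome 2 there were 2 of 955 (0.209%), and on the other chromosomes 25 of 13456 (0.186%). The 7 genes lay 0.837 to 7.71 Mb from Hdc and did not move together: Pla2g4e, Exd1 and Chp1 rose, and Ivd, Ndufaf1, Kcnip3 and Pcna fell. Over all 200 genes of this interval the median log2 fold change was 0.01, with 102 above 0, beside a median of -0.000317 over all genes tested. Which strain the sequence around Hdc comes from was not examined in these backcrossed mice. Effects of the loss of Hdc and of linked sequence cannot be told apart in these genes.

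**Figure D3:**
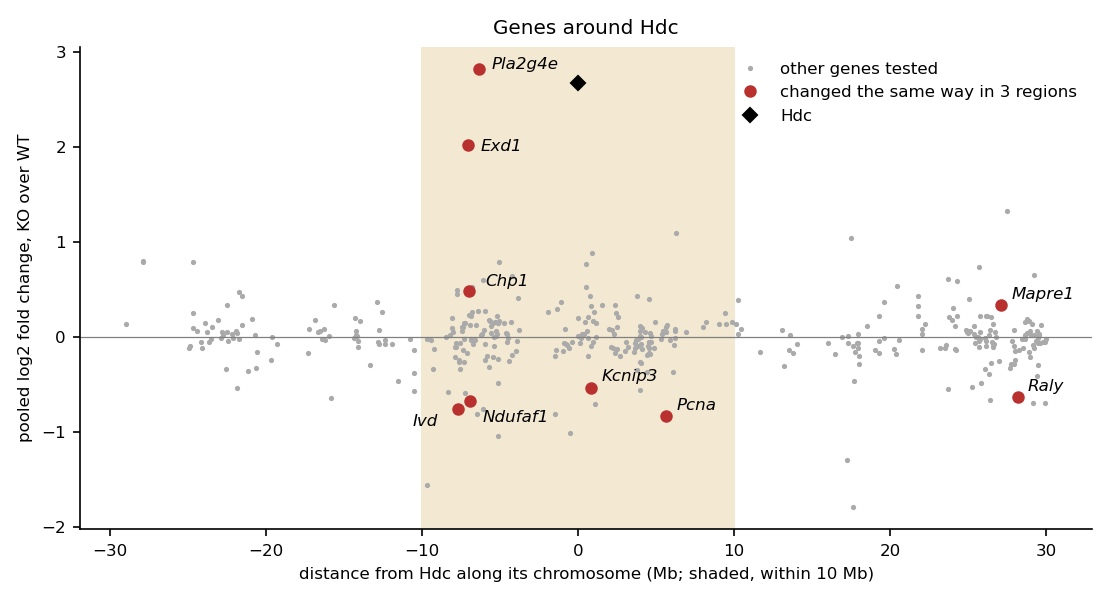
Pooled log2 fold change of KO over WT (y axis) against distance from Hdc in Mb (x axis) for the genes tested within 30 Mb of Hdc on its chromosome; the shaded band marks 10 Mb on either side. Most genes in the band lie near 0, and the 7 that changed the same way in 3 regions (red) lie both above and below it.

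Pla2g4e (chr2:120166412-120245335, minus strand, GRCm38) was the gene with the smallest p. It encodes the epsilon form of cytosolic phospholipase A2, an enzyme that makes precursors of N-acylethanolamine lipids. In the dorsal striatum it was at 30.9 and 24.4 CPM in KO and at 2.70 and 2.95 CPM in WT. In the ventral striatum the KO libraries were at 29.3 and 33.1 CPM and the WT libraries at 3.46, 3.50 and 3.85 CPM. In the hypothalamus they were at 31.5 and 39.0 CPM against 9.47, 4.81 and 5.38 CPM. No KO library came near a WT library in any region. The pooled log2 fold change was 2.82 ± 0.17 (adjusted p = 1.56e-60), and the ratio of pooled CPM was 6.58 (95% counting interval 5.57 to 7.81). Its call was kept under all 30 alternatives run, with values from 2.68 to 3.16 and an adjusted p of at most 3.54e-09, under the mouse block. The calls of Ivd, Pcna-ps2, Gm9733 and Gm5150 were also kept under every alternative in which they were tested.

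Exd1 and Chp1 are neighbours on opposite strands, 7.05 and 7.01 Mb from Hdc. Exd1, which belongs to the piRNA pathway of germ cells, was low everywhere. It had 15 and 8 counts in the KO dorsal striatum and 1 and 4 in WT, 6 and 13 against 3, 5 and 0 in the ventral striatum, and 16 and 10 against 1, 4 and 4 in the hypothalamus. Every KO library thus held more Exd1 than every WT library of its region, and the pooled difference was 2.02 ± 0.37 (adjusted p = 1.07e-04, but 0.0646 by the quasi-likelihood test). Chp1 encodes a calcium-binding partner of sodium-proton exchangers. It rose from 22.8 and 28.3 CPM to 54.3 and 44.4 CPM in the dorsal striatum, from 29.0 to 32.8 CPM to 42.3 and 43.3 CPM in the ventral striatum, and from 45.5 to 51.4 CPM to 56.2 and 56.5 CPM in the hypothalamus. Its regional log2 fold changes were 0.93, 0.45 and 0.22 (pooled 0.49 ± 0.11, adjusted p = 0.00307), and its difference between regions did not pass the test (adjusted p = 0.51). By the quasi-likelihood test the adjusted p of Chp1 was also 0.0646. Its call was lost without WT mouse 2, without the dorsal striatum and without the ventral striatum. The annotated spans of Exd1 and Chp1 do not overlap.

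Ivd, Ndufaf1 and Kcnip3 were lower in KO. Ivd encodes isovaleryl-CoA dehydrogenase of leucine breakdown. It was at 10.6 and 15.8 CPM in KO and 20.7 and 19.3 CPM in WT in the dorsal striatum, at 14.6 and 17.7 against 28.2, 22.6 and 23.8 CPM in the ventral striatum, and at 14.8 and 13.7 against 29.0, 25.8 and 28.1 CPM in the hypothalamus. The groups did not overlap in any region (pooled log2 fold change -0.76 ± 0.11, adjusted p = 5.18e-08), and the call was kept under all 30 alternatives run. Ndufaf1, an assembly factor of respiratory complex I, differed by -0.68 ± 0.17 (adjusted p = 0.044). It passed under only 4 of 30 alternatives. Kcnip3 encodes a calcium sensor that binds Kv4 potassium channels and also acts as a transcriptional repressor. In the hypothalamus it was at 20.9 and 17.6 CPM in KO and 31.1, 27.8 and 34.6 CPM in WT, and the regional log2 fold changes were -0.26 in the dorsal striatum, -0.63 in the ventral striatum and -0.71 in the hypothalamus (pooled -0.53 ± 0.11, adjusted p = 8.99e-04).

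Pcna and a processed copy of it changed in opposite directions. Pcna (chr2:132249162-132253314, minus strand), the sliding clamp of DNA replication and repair, lies 5.63 Mb from Hdc. Pcna-ps2 (chr19:9283380-9284160, plus strand) is annotated as a processed pseudogene on another chromosome. Over the 781 bases of Pcna-ps2, 775 (99.2%) are identical to the coding sequence of Pcna. With positions counted from the first base of the Pcna start codon and the Pcna base given first, the 6 substitutions are A144G, A177C, G424A, A586G, G618T and G699A. The stretch that holds 3 of them is shown, because within the stretch common to both, only reads that cover such a base differ between the copies. Sequences are from the GENCODE transcripts of GRCm38, with differing bases in capitals.

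Pcna, coding positions 580 to 699: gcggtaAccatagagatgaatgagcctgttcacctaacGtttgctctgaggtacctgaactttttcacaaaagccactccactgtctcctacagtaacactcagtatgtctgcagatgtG
Pcna-ps2, positions 579 to 698: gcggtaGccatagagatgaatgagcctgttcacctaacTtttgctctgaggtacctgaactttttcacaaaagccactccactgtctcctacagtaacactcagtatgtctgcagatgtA

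Of the 732 stretches of 50 bases in Pcna-ps2, the read length of these libraries, 467 (63.8%) also occur in Pcna, where they are 19.1% of all stretches. Pcna-ps2 had 15 and 8 counts in the KO dorsal striatum, 15 and 10 in the KO ventral striatum and 15 and 11 in the KO hypothalamus. In WT it had 0 counts in 6 of 8 libraries, 1 count in a ventral striatum library and 2 in a hypothalamus library. The ratio of its pooled CPM was 33.9 (95% counting interval 11.2 to 168, adjusted p of the fit 2.28e-18). Pcna was at 7.83 and 6.30 CPM in KO and 13.2 and 10.4 CPM in WT in the dorsal striatum, at 7.79 and 5.82 against 12.97, 16.7 and 14.6 CPM in the ventral striatum, and at 8.69 and 6.43 against 12.8, 13.2 and 9.32 CPM in the hypothalamus. All KO values of Pcna were below all WT values of the region (pooled log2 fold change -0.83 ± 0.15, adjusted p = 8.51e-05). When the counts of both were summed before the fit, an alternative added after the data were seen, the difference was -0.36 ± 0.14 with an adjusted p of 0.41. How far reads moved between the copies was not tested.

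Gm9733 and Gm5150, predicted protein-coding genes on chromosome 3, were detected in every KO library and in almost no WT library. Gm9733 had 8 and 5 counts in the KO dorsal striatum, 7 and 12 in the KO ventral striatum and 4 and 5 in the KO hypothalamus, and a single count over the 8 WT libraries (ratio of pooled CPM 56.4, 95% counting interval 9.56 to 2279). Gm5150 had 4 and 9, 7 and 3, and 4 and 4 counts in the same KO libraries and 0 in every WT library, which makes it at least 1.74-fold higher in KO against a floor of 3 counts per library. Adjusted p was 4.36e-10 for Gm9733 and 4.68e-08 for Gm5150. Aligned to the coding sequence of Sirpa, a membrane receptor of myeloid cells and neurons that lies 2.97 Mb from Hdc, Gm9733 was 76.3% identical over 295 bases and Gm5150 76.7% over 360 bases. Neither shares a stretch of 50 bases with another transcript of the annotation. This covers annotated transcripts only, and whether reads from other sequence were counted on either gene was not tested. Sirpa itself differed by -0.15 ± 0.07 (adjusted p = 0.55).

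**Figure D4:**
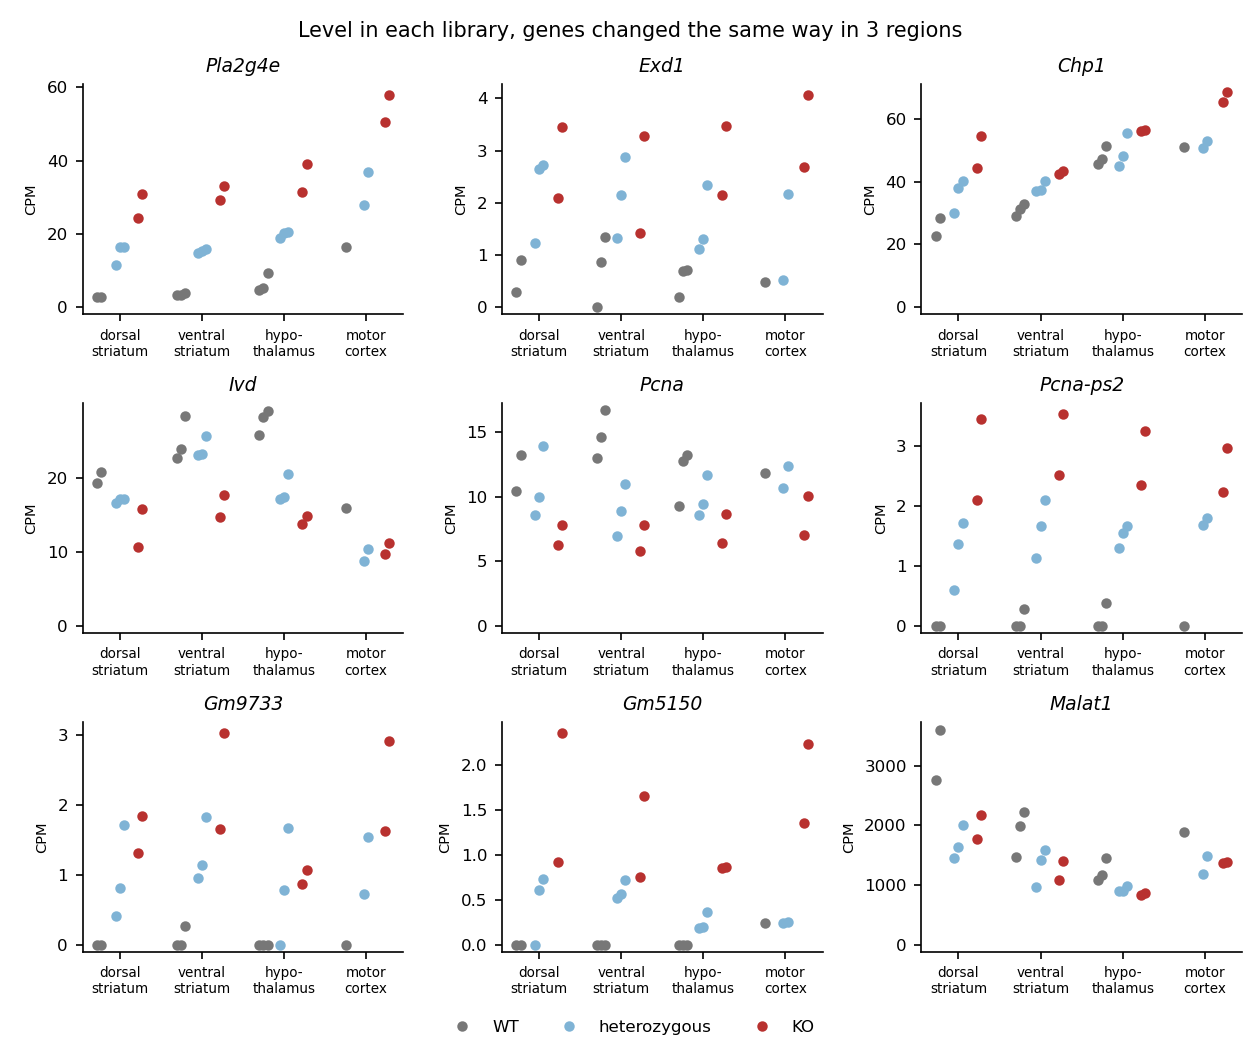
Level (CPM, y axis from 0) of 9 genes in every library, by region (x axis) and genotype (WT grey, heterozygous blue, KO red); each point is 1 library. KO libraries lie apart from WT libraries in the 3 regions tested for all 9 genes, which were taken from those called on these libraries. The same separation was seen for 109 of 14611 genes (0.746%). Motor cortex, which has 1 WT library, was not used in the test.

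The other genes that rose lay on various chromosomes, and most differed by less than 1 on the log2 scale. Wsb1 and Spsb1 encode SOCS box proteins that select substrates for ubiquitin ligases. Wsb1 was at 16.6 and 19.7 CPM in KO and 11.4 and 12.9 CPM in WT in the dorsal striatum, 32.8 and 33.1 against 18.2, 22.3 and 26.9 CPM in the ventral striatum, and 29.5 and 30.7 against 24.0, 20.1 and 21.7 CPM in the hypothalamus. Its regional log2 fold changes of 0.56, 0.53 and 0.45 were nearly equal, and the pooled value was 0.50 ± 0.10 (adjusted p = 5.88e-04). Spsb1 rose by 0.57 ± 0.12 (adjusted p = 0.00225), most in the dorsal striatum, where it was at 25.8 and 23.4 CPM in KO and 16.5 and 9.98 CPM in WT. Its call was lost by the quasi-likelihood test (adjusted p = 0.0646). Leaving out WT mouse 2, KO mouse 8, the dorsal striatum or the hypothalamus also lost it.

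Ide, the insulin-degrading enzyme, is a zinc protease that also cleaves amyloid-beta peptide. It was at 47.0 and 74.9 CPM in the KO dorsal striatum against 29.7 and 35.1 CPM in WT, at 56.9 and 71.8 against 35.2, 38.0 and 56.4 CPM in the ventral striatum, and at 61.0 and 92.2 against 39.0, 42.4 and 61.6 CPM in the hypothalamus. In each region the higher value was that of KO mouse 8, and in the hypothalamus WT mouse 3 slightly exceeded KO mouse 7. Its pooled log2 fold change of 0.70 ± 0.15 (adjusted p = 0.00205) was 0.41 without mouse 8 and 0.94 without mouse 7, and under the mouse block its adjusted p was 0.0501.

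Adra1a and Kcnk9 act at the neuronal membrane: Adra1a is the alpha-1A adrenergic receptor, and Kcnk9 a leak potassium channel. Adra1a rose by 0.44 ± 0.10 (adjusted p = 0.0046). Its KO libraries were at 31.9 and 39.2 CPM in the ventral striatum against 23.9 to 26.4 CPM in WT, and at 12.9 and 13.7 CPM in the dorsal striatum against 9.61 and 12.7 CPM. Kcnk9 rose by 0.69 ± 0.16 (adjusted p = 0.0108), with 24.3 and 20.6 CPM in the KO hypothalamus against 15.1 to 16.8 CPM in WT. Adra1a lost its call by the quasi-likelihood test and DESeq2, and Kcnk9 by these and by the mouse block (adjusted p = 0.133, 0.0839 and 0.102). Stmn1 and Mapre1 encode proteins of microtubules, a destabiliser and a plus-end binding protein. They rose by 0.42 ± 0.10 and 0.34 ± 0.08 (adjusted p = 0.0103 and 0.0259). Mapre1 lies on chromosome 2, 27.1 Mb from Hdc, and its regional values ran from 0.31 to 0.35. Its adjusted p was 0.141 by the quasi-likelihood test, 0.0511 by DESeq2 and 0.102 with the mouse block, and that of Stmn1 was 0.0814, 0.0345 and 0.0642. Of the 1956 stretches of 50 bases in Stmn1, 18.9% occur in other genes, most of them in Gm11223.

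Thbs4, a secreted matrix protein, and Sema3b, a secreted guidance cue, rose by 1.43 ± 0.32 and 1.45 ± 0.35 from few counts. Thbs4 held 20 and 13 counts in the KO dorsal striatum against 3 and 8 in WT, 4 and 7 against 2, 1 and 3 in the ventral striatum, and 8 and 8 against 5, 1 and 4 in the hypothalamus. Sema3b held 28 and 24 counts in the KO hypothalamus against 15, 16 and 12, but 1 and 15 in the KO ventral striatum against 1, 3 and 2. In that region KO mouse 7 held no more counts than the lowest WT library, and mouse 8 lay far above all WT libraries. Over all regions Sema3b was 0.55 above the WT mean in mouse 7 and 1.65 in mouse 8. Both genes lost their call under the quasi-likelihood test, DESeq2 and the mouse block. The remaining genes that rose, chosen for mention after their values were seen, were Vamp4, Cox5b, Cd9, Rnase6 and Gsx1, with adjusted p from 0.0385 to 0.0428. None of these 5 passed in the quasi-likelihood test, DESeq2 or the mouse block.

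Of the 14 genes that fell, 10 lie outside the interval around Hdc. Malat1, an abundant nuclear long noncoding RNA, was at 2177 and 1770 CPM in the KO dorsal striatum and 3594 and 2762 CPM in WT, at 1399 and 1091 against 2219, 1995 and 1466 CPM in the ventral striatum, and at 831 and 868 against 1457, 1087 and 1166 CPM in the hypothalamus. KO libraries were below WT libraries in each region. The regional log2 fold changes of -0.69, -0.62 and -0.56 were close, and the pooled value was -0.62 ± 0.11 (adjusted p = 1.07e-04). Mir124a-1hg, the host transcript of the neuronal microRNA miR-124, fell to 120 and 78.3 CPM from 139 and 141 CPM in the dorsal striatum and to 67.6 and 67.8 CPM from 126, 102 and 93.9 CPM in the ventral striatum. In the hypothalamus KO mouse 8, at 49.1 CPM, overlapped WT mouse 3, at 48.2 CPM. The pooled value was -0.54 ± 0.11 (adjusted p = 0.00205, and 0.0646 by the quasi-likelihood test). The share of reads aligned outside annotated exons did not overlap between genotypes in the dorsal striatum, at 14.9% and 16.1% in KO against 10.8% and 11.8% in WT, and overlapped in the other regions. Its part in these results was not tested.

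Raly, an RNA-binding protein of the hnRNP family 28.2 Mb from Hdc, fell by 0.63 on the log2 scale (SE 0.13, adjusted p = 0.00117). It was at 14.5 and 12.3 CPM in the KO dorsal striatum against 20.4 and 23.8 CPM, at 9.21 and 9.61 against 14.4, 17.0 and 11.3 CPM in the ventral striatum, and at 11.5 and 9.22 against 17.0, 12.5 and 16.3 CPM in the hypothalamus, with no overlap. Prpf38b, a splicing factor, and Mbd6, a methyl-CpG-binding domain protein, differed by -0.38 ± 0.09 and -0.40 ± 0.09 (adjusted p = 0.00705 and 0.0065). Zfp658, a zinc finger gene, differed by -0.75 ± 0.18 (adjusted p = 0.0143), with -0.96 in KO mouse 8 and -0.45 in KO mouse 7. Its call was kept in 16 of 30 alternatives and lost by the quasi-likelihood test, DESeq2 and the mouse block (adjusted p = 0.16, 0.227 and 0.126), while Prpf38b and Mbd6 lost theirs by the quasi-likelihood test and DESeq2 but not with the mouse block. Gm23119, a small Cajal body RNA, held 2 to 8 counts in the 6 KO libraries and 6 to 22 in the 8 WT libraries and differed by -1.28 ± 0.27 (adjusted p = 0.00205). Its call was lost by DESeq2 (adjusted p = 0.107). Leaving out WT mouse 1, KO mouse 7, KO mouse 8, the ventral striatum or the hypothalamus also lost it. Akap8l, Tspoap1 and Tob1 complete the genes that fell, with adjusted p from 0.0328 to 0.0387. These 3 were named after their values were seen, and they lost the call in the quasi-likelihood test, DESeq2 and the mouse block.

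Values for the same genes in other libraries stand beside these. In the motor cortex, from the same KO mice but other libraries and with 1 WT library, genotype was not tested, and 26 of the 34 genes lay on the same side as in the 3 regions. The same held for 2451 of the 4633 genes that had 1 direction throughout. Pla2g4e was at 50.4 and 58.0 CPM in the KO motor cortex and 16.4 CPM in WT, Pcna-ps2 had 10 and 11 counts against 0, and Ide was at 75.3 and 94.0 CPM against 45.8 CPM. Kcnip3 was at 45.3 and 42.3 CPM against 74.2 CPM. Among the 8 on the other side were Thbs4, Spsb1 and Kcnk9, and Ndufaf1 at 5.15 and 5.96 CPM against 3.85 CPM.

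Heterozygous mice, 3 in each region, were compared with the same WT libraries, so the 2 comparisons share their controls. The test called 38 genes (0.256% of 14852), 14 higher and 24 lower in heterozygotes. For Pla2g4e the heterozygous libraries were at 11.6 to 16.4 CPM in the dorsal striatum, 14.8 to 15.9 CPM in the ventral striatum and 18.9 to 20.5 CPM in the hypothalamus, above all WT and below all KO libraries in each region. Its log2 fold change against WT was 1.88 ± 0.14, beside 2.82 in KO. Pcna-ps2 held 3 to 9 counts in the heterozygous libraries and lay 3.71 ± 0.51 above WT, and Exd1 1.56 ± 0.34. For Ide the heterozygous value was -0.23 ± 0.12 (adjusted p = 0.61) where KO was 0.70, and for Ivd it was -0.31 ± 0.09 (adjusted p = 0.16). Malat1 and Mir124a-1hg were lower in heterozygotes than in WT by about as much as in KO (-0.59 ± 0.11 and -0.61 ± 0.10).

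The regions were then tested one at a time. The dorsal striatum had 47 calls (0.322%), all higher in KO (at an unadjusted p under 0.05, 699 were higher and 341 lower), the ventral striatum 8 (0.0548%) and the hypothalamus 13 (0.089%). The choroid plexus genes Prlr and Otx2 were among the 47 (edgeR's likelihood ratio test, adjusted p = 5.2e-04 and 0.0013). In that region the KO library of mouse 8 is the library rich in Ttr. Far fewer genes passed in each region by the quasi-likelihood test or with the mouse block, as given at the end. Pla2g4e, Pcna-ps2 and Gm9733 passed in every region. Gm5150, Spsb1 and Chp1 also passed in the dorsal striatum, Pcna in the ventral striatum and Ivd in the hypothalamus. The other 26 of the 34 genes passed in no single region, and their calls came from pooling the regions. With the dorsal striatum left out 15 genes moved the same way in the remaining regions, 14 of them among the 34, and with the hypothalamus left out there were 22, with 12 of the 34.

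A joint test of whether the KO minus WT difference itself varied with region called 15 genes. Hdc was first (adjusted p = 2.44e-27), for the pattern given above, and it was called in all 14 fits that left out a single library. The quasi-likelihood test and DESeq2 each called 1 gene and the mouse block 0, with 406 genes at an unadjusted p under 0.05 under the block. For 4 of the others named here 1 library carried the difference. Egr3, an immediate early transcription factor, and Kcnh3, a voltage-gated potassium channel, were at 67 and 52 counts in the hypothalamus of KO mouse 8. The other KO hypothalamus library held 10 and 4, and WT libraries no more than 6 of either. Prlr, the prolactin receptor, and Otx2, a homeobox factor, both genes of the choroid plexus, held 112 and 44 counts in the dorsal striatum of KO mouse 8, the library with 10311 counts of Ttr, against 3 and 2 in mouse 7 and 1 or 0 in WT. Without the library in question the adjusted p was 1 for each of Egr3, Kcnh3, Prlr and Otx2.

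Mobp, Adra2b and Cfap65 showed a different pattern, with both KO libraries above both WT libraries in the dorsal striatum. Mobp, a myelin protein of oligodendrocytes, was there at 224 and 264 CPM against 155 and 134 CPM, and its log2 fold change was 0.75 in the dorsal striatum, -0.05 in the ventral striatum and -0.23 in the hypothalamus. Adra2b, an adrenergic receptor 0.744 Mb from Hdc, had differences of 1.71, 0.61 and -0.85. Cfap65, a gene of motile cilia, had differences of 2.32, -1.70 and -0.14. These calls were lost without any of several single libraries. Without the KO dorsal striatum library of mouse 8 the adjusted p of the region difference was 0.48 for Mobp, 0.32 for Adra2b and 0.39 for Cfap65. Without the WT dorsal striatum library of mouse 2 it was 0.56, 0.30 and 0.24, and without the KO hypothalamus library of mouse 8 it was 0.22 for Mobp and 0.42 for Adra2b.

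**Figure D5:**
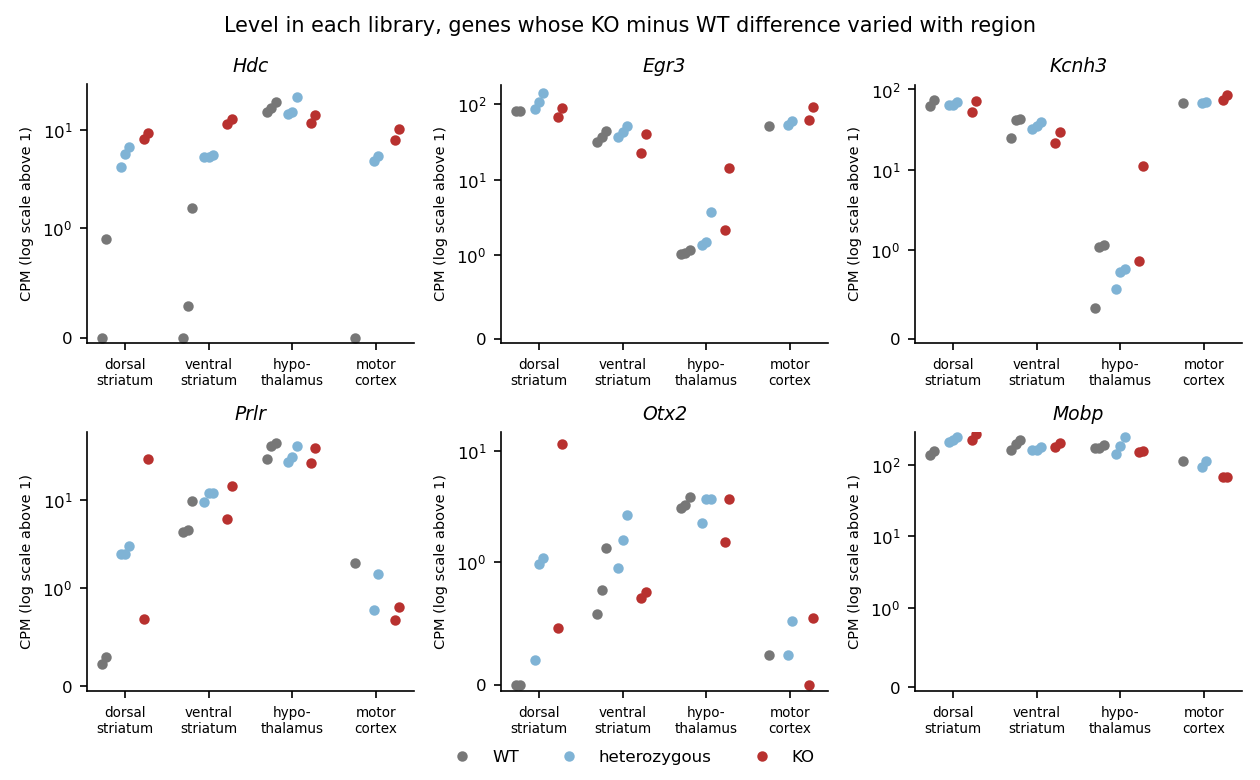
Level (CPM, y axis on a log scale above 1 and linear below) of 6 genes in every library, by region (x axis) and genotype (WT grey, heterozygous blue, KO red); each point is 1 library. Hdc separates KO from WT in the striatum, while Egr3, Kcnh3, Prlr and Otx2 each have 1 KO library far from the other, and Mobp in the dorsal striatum has both KO points above both WT points.

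Gene lists were described by their counts and medians. Of 12 genes of the histamine system 9 were tested and Hdc was called. The receptors Hrh1, Hrh2 and Hrh3 differed by -0.14 ± 0.20, 0.22 ± 0.23 and -0.17 ± 0.11, and Hnmt, which inactivates histamine, by -0.19 ± 0.14. No gene of the other 17 lists passed the pooled test. Of 30 oligodendrocyte and myelin genes 28 had a pooled log2 fold change above 0 (49.9% of all genes did), but the median was 0.71 in the dorsal striatum, 0.13 in the ventral striatum and -0.11 in the hypothalamus. The pooled median of 0.23 was 0.12 without WT mouse 2. Mbp, one of its most abundant members, differed by 0.22 ± 0.12. All 12 genes of an immediate early list that did not hold Egr3 were below 0, with medians of -0.88, -0.69 and -0.06 in the same order. Among them Egr1 differed by -0.23 ± 0.23, Arc by -0.40 ± 0.26, Nr4a1 by -0.62 ± 0.29 and Npas4 by -0.62 ± 0.30. The median of this list, -0.62 in the pooled fit, was -0.18 without WT mouse 2.

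Lists of other cells that a dissection could carry were counted in the same way. All 9 fibroblast and meninges genes were above 0 (median 0.60, and 0.40 without KO mouse 8). Their summed level in the hypothalamus was 157 and 190 CPM in KO and 48.7 to 112 CPM in WT, and in the ventral striatum 47.0 and 155 CPM against 43.5 to 67.6 CPM. All 8 cortical excitatory neuron genes tested were above 0 (median 1.22, and 0.54 without KO mouse 8). Their median was 1.39 in the dorsal striatum, 0.06 in the ventral striatum and 2.04 in the hypothalamus. Their summed level was 104 and 442 CPM in the KO dorsal striatum against 111 and 191 CPM in WT, and it was 213 and 565 CPM in the KO hypothalamus against 213 to 282 CPM in WT. All 10 choroid plexus genes were above 0 (median 1.37, and 0.16 without KO mouse 8). Their median was 5.72 in the dorsal striatum, -0.22 in the ventral striatum and -0.03 in the hypothalamus, and none had 1 direction throughout. Of 12 mitochondrial genes tested none was above 0 in the pooled fit (median -0.22, and -0.11 without WT mouse 1). The median of this list was -0.66 in the dorsal striatum, -0.17 in the ventral striatum and 0.09 in the hypothalamus, and 3 of the 12 genes were lower in all 3 regions. Of 17 spiny neuron genes 3 were above 0 (median -0.09, but -0.43 without KO mouse 7 and 0.09 without KO mouse 8). The part of these shifts in the results for single genes was not tested. The remaining lists had medians between -0.14 and 0.19, with 6 of 10 ependymal, 6 of 15 circadian, 5 of 13 glucocorticoid-responsive, 7 of 10 interferon-responsive, 1 of 10 heat shock, 10 of 14 astrocyte, 8 of 12 microglia, 10 of 13 endothelial, 3 of 5 blood and 4 of 12 hypothalamic neuron genes above 0. Of 32 annotated pseudogenes tested, Pcna-ps2 was called.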

How the data were processed

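RNA from dissected brain regions was amplified (Ovation RNA-Seq V2) and sequenced as single-end reads of 50 bases. According to the methods and the submitters' processing notes, the authors trimmed reads (Trimmomatic 0.32), removed ribosomal reads (Bowtie2 2.2.3), aligned to GRCm38 with Ensembl annotation (STAR 2.3.1z8) and counted reads on exons (HTSeq 0.6.1p1). The deposited files hold raw counts of reads per gene, 1 file per library, and the last lines tally unassigned reads, which stayed out of library sizes (45.1% to 49.7% of tallied reads lay on genes in KO and 47.3% to 54.2% in WT libraries). Reads that align to several places equally well are not counted on a gene.

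Counts were fitted with edgeR 4.0.16 (TMM scaling, likelihood ratio test, the test the study names) in R 4.3.3, as region plus genotype. Regional values came from a model with 1 mean per group. Alternatives were the quasi-likelihood test, DESeq2 1.42.0, limma 3.58.1 (voom, mouse as random block), other scalings and filters, and leaving out libraries, mice and regions. SE is the log2 fold change divided by the root of the likelihood ratio statistic. CPM values use TMM over all 28 libraries. Per-mouse values add a prior count of 2. Counting intervals are exact 95% intervals of pooled counts and cover counting error only. Symbols and positions are from GENCODE for GRCm38 (28842 of 29878 genes matched).

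Named were Hdc, the 25 shared genes of smallest p, those of opposite directions, the 5 of smallest p in the region test, called genes of 18 lists, and otherwise up to 4 abundant members of a described list. A few genes meeting this rule are not reported here. Members and lists were chosen with earlier results of these data known. On simulated data of 14392 genes for this comparison the likelihood ratio test called 191, 18 of them false, and recovered 75 of 100 changes of 0.5 and 98 of 100 changes of 1 on the log2 scale, while the quasi-likelihood test had 11 false calls. The simulated libraries were drawn independently, without a mouse effect, and only genes with a mean above 5 CPM were changed. These figures therefore do not cover differences between mice or genes of few counts such as Gm9733. Deviations of libraries of 1 mouse from their group means correlated at -0.08 to 0.09 (13 pairs), and the fitted block correlation was -0.04. No source used here states what the title digit means. P-values of the pooled test, with or without the mouse block, measure the spread between libraries, not mice.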

Additional observations from a re-analysis of the deposited data

Results flagged for a closer look

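The test of the KO minus WT difference between regions called 15 genes, and 8 of these are given here. Its adjusted p (edgeR's likelihood ratio test) was 2.44e-27 for Hdc, which was higher in KO in the striatum, while its hypothalamic difference (-0.42) did not pass the test. For 4 genes a single KO library lay far from the rest: Egr3 (0.0026) and Kcnh3 (0.0244) in the hypothalamus of mouse 8, and Prlr (0.032) and Otx2 (0.0299) in the dorsal striatum of mouse 8. Cfap65 (0.0236), Mobp (0.046) and Adra2b (0.046) were higher in KO in the dorsal striatum, though Cfap65 did not pass the test there (adjusted p = 0.0881). Their log2 fold changes in the hypothalamus, of -0.14, -0.23 and -0.85, did not pass either. For Cfap65 the lowest value was that of the ventral striatum (-1.70), which also did not pass.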

How the results depend on the processing

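The 34 genes kept their direction under most alternatives, but their number depended on the test and on single mice. In the pooled test and among genes of 1 direction, the quasi-likelihood test called 11 and 11 (5 higher, 6 lower), DESeq2 17 and 17 (11 and 6), and the replicate block by mouse 18 and 18 (9 and 9). The difference between regions then had 1, 1 and 0 calls. Fitting all 28 libraries gave 79 and 67 (52 higher). Scaling by size alone left 4 lower genes, gave 59 calls of a region difference and moved the median of all genes to 0.07. Leaving out the dorsal striatum gave 15 and 15 (8 and 7), the hypothalamus 22 and 22 (12 higher), and the ventral striatum 5 lower genes. Single regions had 3 (dorsal), 2 (ventral) and 1 (hypothalamus) calls by quasi-likelihood, and 1, 2 and 2 with the replicate block. Size scaling gave 281 in the dorsal striatum and 7 in the hypothalamus. Heterozygotes had 14, 17 and 16 calls by quasi-likelihood, size scaling and block.

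Leaving out 1 library or mouse gave 13 to 143 calls in the pooled test, 12 to 130 of 1 direction (8 to 89 higher, 4 to 41 lower) and 3 to 83 of a region difference. The single regions ranged from 13 to 146 (dorsal), 5 to 110 (ventral) and 3 to 66 (hypothalamus), and heterozygotes from 11 to 46. The lowest pooled counts came without KO mouse 8 and the highest without KO mouse 7. Without WT mouse 1 there were 20 and 18 (10 higher). Among single libraries, leaving out the ventral striatum of KO mouse 7 gave 78 of 1 direction (50 higher), the hypothalamus of KO mouse 7 gave 50 and the ventral striatum of KO mouse 8 gave 21. Without WT mouse 2 heterozygotes had 24 calls. The cause was not tested. With 3 alternatives fewer than 34 genes kept their sign or were tested: 33 without KO mouse 7, 32 without the hypothalamus and 26 above 5 CPM. No named value changed sign with a call. DESeq2 size factors, no filter and the filter of 5 CPM kept the count within 1.5 times, at 36, 25 and 28. Pcna lost its call without KO mouse 8 and without the ventral striatum. At a median of 4154244 counts per KO library, genes with a few counts, such as Gm9733, Gm5150 and Pcna-ps2, have wide counting intervals. Only 2 KO mice carry every comparison.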
